A study of Mus musculus with 8 samples.

Results

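The genes described here are 9 genes of matricellular proteins in mouse skin: Postn, Cthrc1, the thrombospondins Thbs1, Thbs2, Thbs3 and Thbs4, the tenascins Tnc and Tnxb, and Sparc. They are 9 of the 49671 genes counted, and all 9 were above the filter on low counts that left 19099 genes for testing. The family was chosen by measured values: Postn, Cthrc1 and Thbs3 differed between the genotypes compared here, so the differences of all 9 members between these genotypes are given as a description. How many members passed a threshold is printed only beside the share of all genes that did, and no p-value of a member is given. RNA came from the whole shaved back skin of mice aged 8 weeks. The groups were mice of Flg genotype ko/ko (Flg knockout, 4 libraries) and of Flg genotype wt/wt (wild type, 4 libraries). The sources used here do not give the strain, the sex or the part of Flg that was deleted. Nor do they state whether the libraries of a genotype are separate animals, so a p-value below measures the spread between these samples, which may be technical.

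Matricellular proteins are secreted into the extracellular matrix but serve mainly as signals and organisers rather than as load-bearing fibres. They bind collagens, integrins and growth factors, and several of them control how TGF-beta is released or how collagen fibrils are assembled. In skin they come largely from dermal fibroblasts, and periostin and tenascin-C are best known from wound repair, fibrosis and allergic inflammation. Flg encodes profilaggrin, the precursor of filaggrin, which packs keratin filaments in the outermost living epidermis.

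Flg reads numbered 1027, 461, 579 and 595 in knockout libraries 1 to 4, against 2317, 1175, 1331 and 1682 in wild-type libraries 1 to 4. As CPM, a count scaled by library size, Flg averaged 24.5 ± 1.97 in knockout skin and 59 ± 9.77 in wild-type skin (SD, n = 4 each). The log2 fold change was -1.27 ± 0.12 (SE; knockout over wild type here and throughout), with an adjusted p of 0.00326 by edgeR's quasi-likelihood test. An exact two-sided permutation test gave p = 0.0286, the smallest that 70 assignments of 8 libraries allow. Reads remained on Flg in every knockout library.

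The libraries held 18483242 to 38545957 counts in knockout skin and 23817186 to 34263154 in wild-type skin. On the first principal component of all tested genes, which held 34.9% of the variance, the knockout libraries stood between -26.9 and -10.8. Wild-type libraries 1 and 4 stood apart at 43.9 and 38.7, with wild-type libraries 2 and 3 at 3 and -1.3. Wild-type library 2 was low in fibrillar matrix transcripts: relative to the mean of the other wild-type libraries it held 51.4% of Col1a1, 50.6% of Col3a1 and 32.3% of Eln, but 149% of Dcn and 151% of Lum. Fibroblast markers were abundant in all 8 libraries, with a summed 16435 to 24491 CPM in knockout skin and 16387 to 23982 CPM in wild-type skin. Among them Pdgfra, a receptor that marks fibroblasts, had 295 ± 32.7 CPM in knockout skin. In wild-type skin it had 195 ± 32.5 CPM (SD, n = 4 each), with no overlap and an edgeR adjusted p of 0.0502. Of the 6 fibroblast markers, Pdgfra was the 1 with a positive log2 fold change, and 5 were negative (median -0.07). The macrophage receptor gene Mrc1 was the 1 marker that passed the test in any of 13 marker lists. It had 674 ± 92.9 CPM in knockout skin and 450 ± 52.8 CPM in wild-type skin (log2 fold change 0.58 ± 0.12, edgeR adjusted p = 0.0483). Of the 4 macrophage markers, 2 had a positive and 2 a negative log2 fold change. Their sums, at 930 to 1280 CPM in knockout skin and 739 to 1097 CPM in wild-type skin, overlapped. White adipocyte markers summed to 1859 to 2944 CPM in knockout skin and 914 to 2538 CPM in wild-type skin. Of the 9, 8 had a positive log2 fold change, none with an adjusted p under 0.05. Lep (log2 fold change 2.43 ± 0.55), Cfd (1.18 ± 0.25) and Retn (1.61 ± 0.37) were higher in knockout skin without overlap, and the other adipocyte markers overlapped. The summed basal keratinocyte markers were 4075 to 4873 CPM in knockout skin and 5044 to 5191 CPM in wild-type skin, with no overlap. Those of smooth muscle and pericytes were 1473 to 1741 CPM in knockout skin and 1243 to 1456 CPM in wild-type skin, also with no overlap. Most of the latter sum was Des, at 969 ± 90.2 CPM in knockout skin and 900 ± 103 CPM in wild-type skin, which overlapped. As single markers, only Krt5 in the basal list and Acta2 and Myh11 in the smooth muscle list did not overlap. Krt14, Col17a1, Itga6, Rgs5, Cspg4 and Tagln overlapped. Anagen hair markers summed to 16.7 to 23.5 CPM in knockout skin and 15.5 to 36.6 CPM in wild-type skin, and wild-type libraries 1 and 4 were the highest. The part of these cell types in the differences below was not tested. Fits with the adipocyte or the anagen markers as a covariate are given as alternative settings only. The adipocyte markers had a median log2 fold change of 0.80 between the genotypes, so in that fit genotype and marker level cannot be fully told apart. In RNA of whole skin, fewer cells of a type and less RNA per cell cannot be told apart.

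Per length, the members differed widely in level. On the RPKM scale, CPM divided by exon length in kilobases, Sparc, a collagen-binding protein that aids fibril assembly, was the highest member in every library, at 889 ± 155 in knockout skin and 1060 ± 270 in wild-type skin (SD, n = 4 each). The next levels were those of Postn, at 126 ± 7.59 in knockout skin and 214 ± 20.6 in wild-type skin, and of Thbs2, at 138 ± 20.8 in knockout skin and 84.2 ± 17.4 in wild-type skin. Thbs2 stood above Postn in knockout libraries 2, 3 and 4 and below it elsewhere. Thbs2 was at 107, 143, 148 and 154 RPKM and Postn at 131, 125, 133 and 116 RPKM in knockout libraries 1 to 4. In wild-type libraries 1 to 4, Thbs2 was at 97.1, 63.7, 75.7 and 100 RPKM and Postn at 192, 224, 237 and 202 RPKM. Tnxb followed with 49.9 ± 2.38 RPKM in knockout skin and 42.5 ± 6.8 in wild-type skin, then Thbs1 and Thbs3. Thbs4, Tnc and Cthrc1 were the lowest, all below 10 RPKM in every library, and in wild-type skin their means of 5.69 ± 3.01, 5.59 ± 2.02 and 6.02 ± 2.48 RPKM differed by less than their spread. In knockout skin, Thbs4 averaged 5.61 ± 0.497 RPKM, above every value of Tnc (1.78 to 2.86) and Cthrc1 (0.925 to 2.95).

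**Figure D1:**
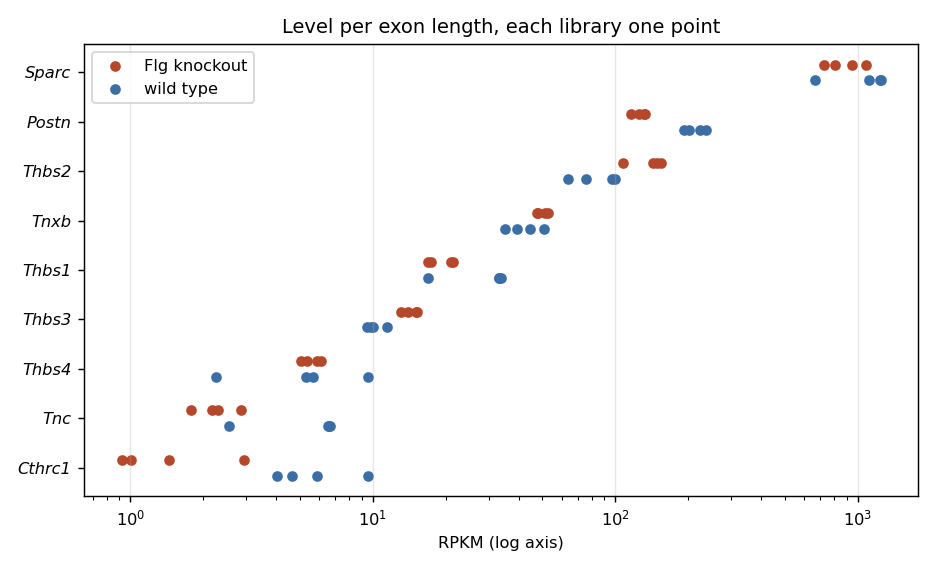
RPKM of the 9 members on a log axis, 1 point per library, with Flg knockout above wild type in each row and genes ordered by their mean over all libraries. Sparc lies highest, between 664 and 1239 RPKM, and the Postn and Thbs2 rows move in opposite directions between genotypes.

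Periostin, a secreted protein that acts on collagen assembly, and Cthrc1, also secreted, were the members lower in knockout skin in every library. Postn had 1137, 1088, 1154 and 1006 CPM in knockout libraries 1 to 4, against 1671, 1951, 2065 and 1758 CPM in wild-type libraries 1 to 4. The genotypes did not overlap, the knockout mean was 58.9% of the wild-type mean, and the log2 fold change was -0.76 ± 0.11. Postn lies on chromosome 3 (chr3:54361109-54391037, mm10, plus strand), 38.91 Mb from the start of Flg. Without wild-type library 2 or without wild-type libraries 1 and 4, its log2 fold change was -0.74 and -0.87.

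Cthrc1 (collagen triple helix repeat containing 1, known for promoting cell migration and for binding Wnt and Frizzled proteins) had 1.37, 2.14, 4.37 and 1.5 CPM in knockout libraries 1 to 4, against 6.88, 8.7, 14.2 and 5.94 CPM in wild-type libraries 1 to 4. The reads behind these values were few, at 52, 40, 105 and 40 counts in knockout libraries and 238, 220, 336 and 150 counts in wild-type libraries. Knockout library 3 was the highest of its genotype and still below the lowest wild-type library. The knockout mean was 26.3% of the wild-type mean, and the log2 fold change of -1.94 ± 0.40 had the widest SE of the 9 members. Wild-type library 3 held 197% of the mean of the other wild-type libraries, and without it the log2 fold change was -1.63. Cthrc1 lies at chr15:39076932-39087121 on the plus strand.

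The thrombospondins fall into a trimeric pair, Thbs1 and Thbs2, which block angiogenesis through CD36 and CD47, and a pentameric pair, Thbs3 and Thbs4, known from cartilage, tendon and muscle. Thbs1, the main thrombospondin activator of latent TGF-beta, had 102, 128, 105 and 130 CPM in knockout libraries 1 to 4, against 201, 102, 205 and 200 CPM in wild-type libraries 1 to 4. Wild-type library 2 lay among the knockout libraries, and the other wild-type libraries lay above all of them. The log2 fold change was -0.61 ± 0.20 with library 2 and -0.80 without it. Thbs2, which lacks the sequence that activates TGF-beta and is known for limiting collagen fibril width, had 636, 846, 875 and 911 CPM in knockout libraries 1 to 4, against 575, 377, 448 and 593 CPM in wild-type libraries 1 to 4. Its genotypes did not overlap, with a log2 fold change of 0.71 ± 0.16, although knockout library 1 stood close to the highest wild-type library. Thbs1 lies at chr2:118111876-118127133 on the plus strand and Thbs2 at chr17:14665500-14694262 on the minus strand.

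Thbs3 had 63.2, 67.3, 72.4 and 73.3 CPM in knockout libraries 1 to 4, against 54.7, 47.4, 48.4 and 45.6 CPM in wild-type libraries 1 to 4. The genotypes did not overlap, and wild-type library 1 was the nearest to the knockout range. The log2 fold change was 0.49 ± 0.08, and over 15 alternative settings it ran from 0.46 to 0.55. Thbs4, a protein of tendon and muscle attachment, had 20.2, 17.7, 16.6 and 19.3 CPM in knockout libraries 1 to 4, against 18.5, 7.39, 31.6 and 17.4 CPM in wild-type libraries 1 to 4. Its wild-type libraries 2 and 3 lay below and above all others, and its log2 fold change of -0.02 ± 0.34 became -0.28 without library 2 and 0.36 without library 3. Tendon and cartilage markers summed to 40.6 to 53.2 CPM in knockout skin and 51.2 to 60.1 CPM in wild-type skin, and muscle markers to 15423 to 19730 CPM in knockout skin and 12774 to 17915 CPM in wild-type skin. Thbs4 lies at chr13:92751590-92794818 on the minus strand.

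As a share of the summed RPKM of the 4 thrombospondins, Thbs2 made up 74.8%, 78%, 79.8% and 78.3% in knockout libraries 1 to 4 and 66%, 68.8%, 58.6% and 67.7% in wild-type libraries 1 to 4. Thbs1 made up 11.7%, 11.5%, 9.33% and 10.9% in knockout libraries and 22.5%, 18.2%, 26.2% and 22.3% in wild-type libraries. Within the family, then, the genotypes did not overlap for either share, and wild-type library 2 stood with its own genotype. Each share depends on the other members, so a higher Thbs2 alone lowers the share of Thbs1. The summed RPKM was 177 ± 23.1 in knockout skin and 129 ± 25.8 in wild-type skin. In wild-type library 2 it was 92.7, the lowest of all libraries, and Thbs1 there lay among the knockout libraries in CPM. The shares of Thbs3, at 8.15% ± 0.686 in knockout skin and 8.12% ± 1.78 in wild-type skin, and of Thbs4, at 3.23% ± 0.708 in knockout skin and 4.32% ± 2.17 in wild-type skin, overlapped (SD, n = 4 each).

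Tenascin-C, a large glycoprotein induced at healing wounds, was low in all knockout libraries. Tnc had 22.2, 13.8, 16.9 and 18 CPM in knockout libraries 1 to 4, against 52, 19.9, 50.7 and 51.2 CPM in wild-type libraries 1 to 4. Wild-type library 2, at 38.8% of the mean of the other wild-type libraries, again lay within the knockout range. The log2 fold change was -1.29 ± 0.29 with that library and -1.53 without it. Tnxb, the tenascin whose human counterpart is lost in a form of Ehlers-Danlos syndrome, had 583, 587, 642 and 625 CPM in knockout libraries 1 to 4, against 545, 479, 621 and 429 CPM in wild-type libraries 1 to 4. Wild-type library 3 fell inside the knockout range and the log2 fold change was 0.23 ± 0.12. Sparc had 3593, 2745, 4072 and 3059 CPM in knockout libraries 1 to 4, against 4649, 2514, 4692 and 4201 CPM in wild-type libraries 1 to 4. The lowest Sparc value of all was again wild-type library 2, and the log2 fold change was -0.25 ± 0.21. Tnc lies at chr4:63959785-64047015 (minus strand), Tnxb at chr17:34670535-34719815 (plus strand) and Sparc at chr11:55394500-55423183 (minus strand).

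**Figure D2:**
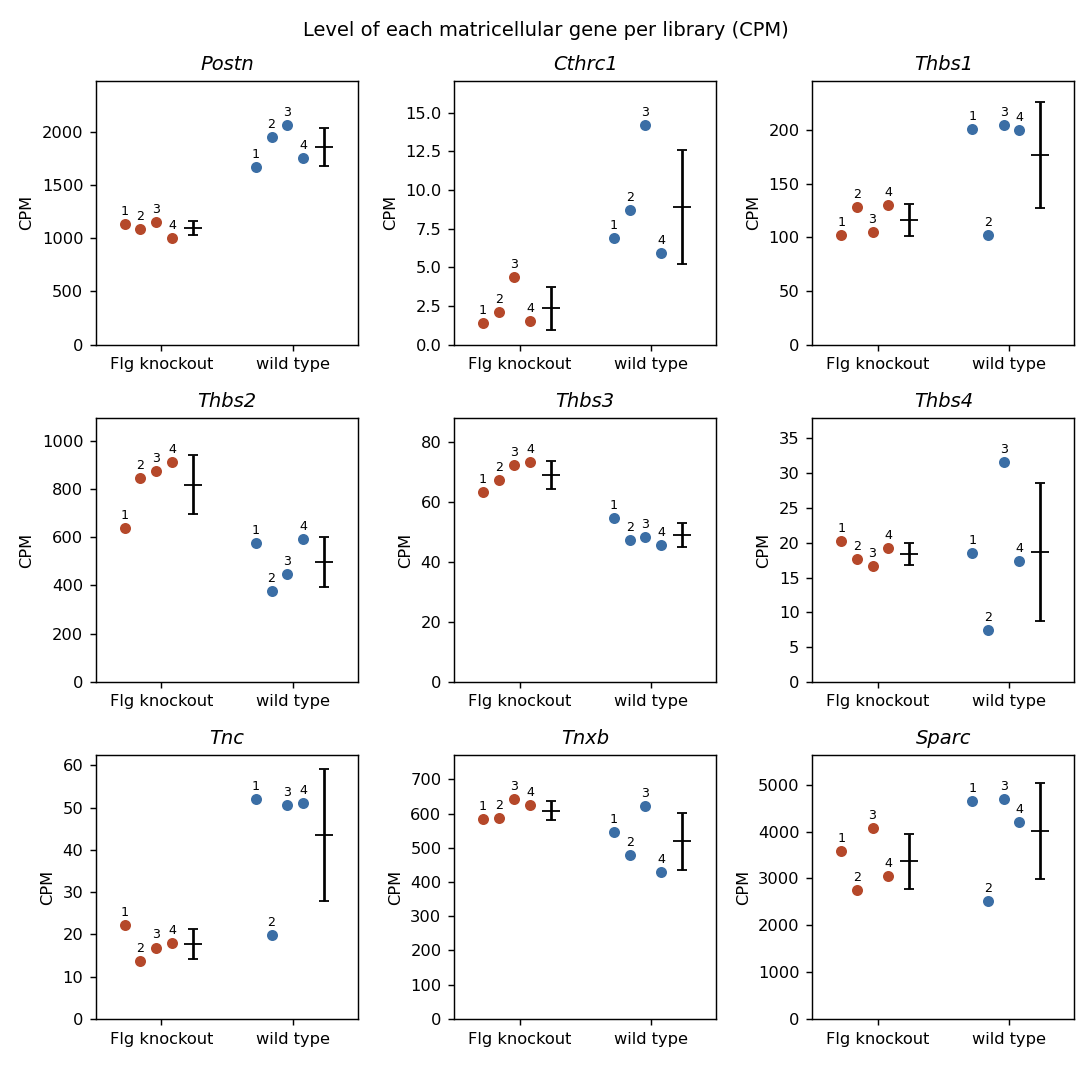
CPM of each member by library, 1 panel per gene on its own axis from 0, with Flg knockout left and wild type right. Numbers beside points are library numbers and the bars are mean ± SD (n = 4 each); Postn, Cthrc1, Thbs2 and Thbs3 show no overlap, and wild-type library 2 is the point that meets the knockout range in Thbs1 and Tnc.

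In the fit across all genes, 3 of the 9 members had an adjusted p under 0.05, 1 of them higher (Thbs3) and 2 lower (Postn and Cthrc1) in knockout skin. Among all 19099 tested genes 1.41% passed that threshold, with 0.712% higher and 0.702% lower in knockout skin. The genotypes did not overlap in 4 of the 9 members, against 11.5% of all tested genes, of which 5.57% were higher and 5.95% lower in knockout skin. Because the same contrast chose the members, these counts are a description and nothing is read from them. Cthrc1, at -1.94 ± 0.40, lay just inside the threshold, and Thbs2, at 0.71 ± 0.16, and Tnc, at -1.29 ± 0.29, lay just outside it. Over the 15 alternative settings described next, Postn passed in 12, Thbs3 in 10, Thbs2 in 6, Cthrc1 in 5, Tnc in 4, Thbs1 in 2 and Tnxb in 1, and Thbs4 and Sparc in 0. These settings refit libraries of the same contrast that chose the members, so the tallies too are only a description. The share of all genes that passed in each setting is given next.

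The share of all genes past the threshold moved widely with the setting, and so did the members' count. DESeq2 called 5 members with 6.29% of all genes, and limma voom with quality weights called 7 members with 13.3%. Other size factors (RLE) called 2 members with 1.23% of all genes, and no filter on low counts called 3 members with 1.38%. With the anagen hair markers as a covariate, 5 members and 2.47% of genes passed; with the white adipocyte markers as a covariate, no member and 0% of genes passed. Leaving out knockout library 1, 2, 3 or 4 left 2, 0, 2 and 0 members, with 0.397%, 0.0566%, 0.663% and 0.0775% of all genes. Leaving out wild-type library 1, 2, 3 or 4 left 2, 4, 4 and 1 members, with 0.327%, 2.6%, 6.82% and 0.32% of all genes, and leaving out wild-type libraries 1 and 4 together left 3 members with 1.93%. In all of these settings the log2 fold changes of Postn (-0.87 to -0.70), Cthrc1 (-2.44 to -1.63), Thbs1 (-0.99 to -0.40) and Tnc (-1.69 to -0.98) were negative. Those of Thbs2 (0.60 to 0.99) and Thbs3 (0.46 to 0.55) were positive. Sparc (-0.43 to -0.10) also stayed negative and Tnxb (0.02 to 0.34) positive, and only Thbs4 (-0.87 to 0.36) took both signs. A constant sign therefore does not set apart the members that passed the threshold.

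Wild-type library 2 was low for several members and for fibrillar collagen alike, so reads were also set against those of Col1a1, a measure chosen after the values were seen and given without a test. Per 1000 Col1a1 reads, Tnc had 3.2, 2.72, 2.08 and 2.81 reads in knockout libraries 1 to 4, against 5.79, 4.71, 6.09 and 7 in wild-type libraries 1 to 4. On this scale the genotypes of Tnc did not overlap. That depends on the choice of Col1a1, of which wild-type library 2 held 51.4% of the mean of the other wild-type libraries. Of Dcn and Lum it held 149% and 151%, and reads were not set against those genes. Cthrc1 had 0.197, 0.422, 0.537 and 0.234 reads in knockout libraries, against 0.766, 2.06, 1.7 and 0.811 in wild-type libraries, and Thbs2 had 91.6, 167, 107 and 142 against 64.1, 89.5, 53.8 and 81, both also without overlap. Sparc followed Col1a1 closely, with 478 to 541 reads in knockout libraries and 518 to 596 in wild-type libraries. Thbs1, at 12.9 to 25.2 reads in knockout libraries and 22.3 to 27.4 in wild-type libraries, overlapped. Postn and Thbs3, which did not overlap in CPM, overlapped on this scale. Postn had 142 to 214 reads in knockout libraries and 186 to 463 in wild-type libraries. Thbs3 had 8.88 to 13.3 reads in knockout libraries and 5.8 to 11.2 in wild-type libraries.

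**Figure D3:**
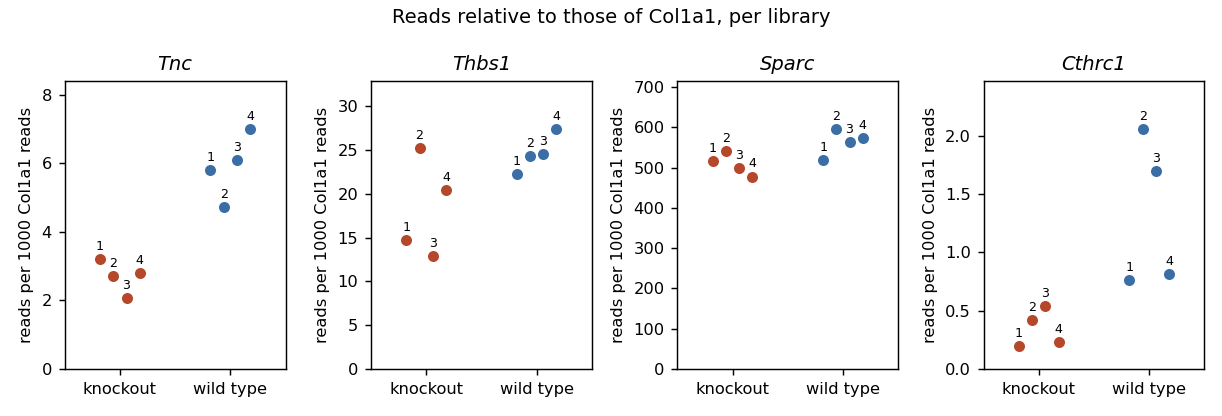
Reads of Tnc, Thbs1, Sparc and Cthrc1 per 1000 reads of Col1a1 in each library, Flg knockout left and wild type right, with library numbers beside the points. Tnc and Cthrc1 separate by genotype on this scale, with wild-type library 2 at 4.71 for Tnc, while Sparc and Thbs1 overlap. Postn and Thbs3, not drawn here, also overlap on this scale.

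The promoter windows of Postn, Thbs2, Thbs3 and Tnc are shown because, among members with a window, these had the largest log2 fold changes, 2 in each direction. Each runs from 250 bases before to 50 bases after the RefSeq start (GRCm38.p6), read 5′ to 3′ on the gene's strand. Capitals mark matches to TATAAA (the TATA box core), GGGCGG (the GC box bound by SP1), TGANTCA (bound by AP-1) or GGAATG (bound by TEAD factors), searched on both strands, and no marked matches overlap. The Postn window is chr3:54360857-54361156 (plus), that of Thbs2 chr17:14694213-14694512 (minus), that of Thbs3 chr3:89214930-89215229 (plus) and that of Tnc chr4:64046966-64047265 (minus).
Postn: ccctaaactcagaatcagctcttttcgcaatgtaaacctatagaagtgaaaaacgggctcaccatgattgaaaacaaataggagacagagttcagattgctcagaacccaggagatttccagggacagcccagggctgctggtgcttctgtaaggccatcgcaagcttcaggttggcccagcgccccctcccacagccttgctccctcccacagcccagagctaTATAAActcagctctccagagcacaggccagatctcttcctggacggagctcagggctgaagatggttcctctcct
Thbs2: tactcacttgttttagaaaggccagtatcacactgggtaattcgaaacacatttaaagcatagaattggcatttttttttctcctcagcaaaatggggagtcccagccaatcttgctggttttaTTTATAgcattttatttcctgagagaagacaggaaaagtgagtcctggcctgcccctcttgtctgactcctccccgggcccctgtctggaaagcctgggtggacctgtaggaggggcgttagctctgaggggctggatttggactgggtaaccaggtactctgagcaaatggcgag
Thbs3: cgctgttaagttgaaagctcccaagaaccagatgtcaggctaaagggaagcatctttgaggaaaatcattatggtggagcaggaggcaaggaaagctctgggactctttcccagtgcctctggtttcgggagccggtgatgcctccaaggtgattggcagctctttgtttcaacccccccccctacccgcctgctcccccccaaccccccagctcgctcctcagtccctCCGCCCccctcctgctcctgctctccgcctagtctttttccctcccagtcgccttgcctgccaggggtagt
Tnc: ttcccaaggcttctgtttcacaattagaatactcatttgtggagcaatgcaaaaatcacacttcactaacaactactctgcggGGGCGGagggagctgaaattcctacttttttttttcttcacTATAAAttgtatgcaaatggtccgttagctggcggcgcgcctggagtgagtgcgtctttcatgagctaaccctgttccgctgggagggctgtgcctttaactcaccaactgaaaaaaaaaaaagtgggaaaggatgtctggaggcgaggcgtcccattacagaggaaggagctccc

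Postn had TATAAA on its own strand, beginning 26 bases before the start. Thbs2 had the same motif on the opposite strand, and Tnc had it on its own strand, both beginning 126 bases before the start. Thbs3 had no TATAAA but a GGGCGG on the opposite strand, beginning 21 bases before the start, and Tnc had a GGGCGG at 167 bases before it. Of the other windows in the table, Thbs4 held 3 matches to GGGCGG and 2 overlapping ones to GGAATG, and Tnxb a TGANTCA match, 55 bases before its start. The Sparc window held none of the 4 motifs, but it belongs to a start 3103 bases from the one in the deposited gene table. Among all 32851 windows of 27025 genes, 13.6% held TATAAA, 35.7% GGGCGG, 7.81% TGANTCA and 14.7% GGAATG, so each is a common string. Base composition also differed, with 53% G and C in the Postn window, 59% in Thbs3, 48.3% in Thbs2, 47.3% in Tnc and 72% in Thbs4, against a median of 52.7% over all windows. Cthrc1 and Thbs1 were not among the windows used.

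Thbs3 lies on the same chromosome as Flg (chr3:89215180-89226837, plus strand), 4.058 Mb from its start, so the genes beside it were examined. Of 19 genes that start within 100 kb of Thbs3, 14 were tested. By edgeR 0 of these had an adjusted p under 0.05, against 1.41% of all tested genes. By DESeq2 and limma voom 1 and 2 passed it, against 6.29% and 13.3% of all genes. At an unadjusted p under 0.05 there were 3 (21.4%), against 19.5% of all tested genes. Their log2 fold changes ran from -0.65 to 0.20, all below that of Thbs3. Efna1, an ephrin ligand, had the smallest p, with 42.3 ± 4.32 CPM in knockout skin and 58.8 ± 7.01 CPM in wild-type skin and a log2 fold change of -0.48 ± 0.11 (edgeR adjusted p = 0.0547). Mtx1, a mitochondrial import gene on the opposite strand, shares 318 exon bases with Thbs3, 6.59% of the exon bases of Thbs3. Mtx1 had 20 ± 1.56 CPM in knockout skin and 21.2 ± 2.48 CPM in wild-type skin, a log2 fold change of -0.08 ± 0.11 (edgeR adjusted p = 0.708). Overlapping partners of Thbs1, Tnc and Tnxb had at most 22 reads in any library.

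Profiles over the 8 libraries were compared as log2 CPM centred on each gene's mean, with the root mean square difference in log2 units as the distance. This distance is not scaled to how much a gene varies. It tends to be small between genes that vary little and large for genes that vary widely, so distances are not comparable between members. Among the members, Thbs3 was nearest to Tnxb (0.176) and then to Thbs2 (0.235), and Thbs1 was nearest to Sparc (0.312). The most distant pair was Cthrc1 and Thbs2 (1.484). Of 15145 genes compared, the nearest to Postn were Ear2 (0.104), Calhm5 (0.124), Hoxd3os1 (0.131), Aqp3 (0.133) and Lmo2 (0.135). Ear2, an eosinophil-associated ribonuclease whose reads may be shared with near-identical family members, had 9.97, 11.2, 11.7 and 10 CPM in knockout libraries 1 to 4, against 14.2, 19, 20.5 and 18.6 CPM in wild-type libraries 1 to 4. The nearest to Thbs3 were Tns2 (0.054), Dnm1 (0.068), Zmym1 (0.080), Amotl2 (0.082) and Cd80 (0.084). The nearest to Cthrc1, the member whose level varied most over the libraries, were Slc6a7 (0.347), C1qtnf3 (0.442), Pamr1 (0.458), Cd83 (0.481) and Ctsk (0.529). The nearest pairs were Vash2 and Grip1 to Thbs1, Adgrd1 and Itgb3 to Thbs2, Igha and Glb1l2 to Thbs4, and Cacna1c and Chrd to Tnxb. Itgb3, the beta chain of the integrin alpha-v beta-3 that binds thrombospondins and periostin, lay at 0.099 from Thbs2.

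**Figure D4:**
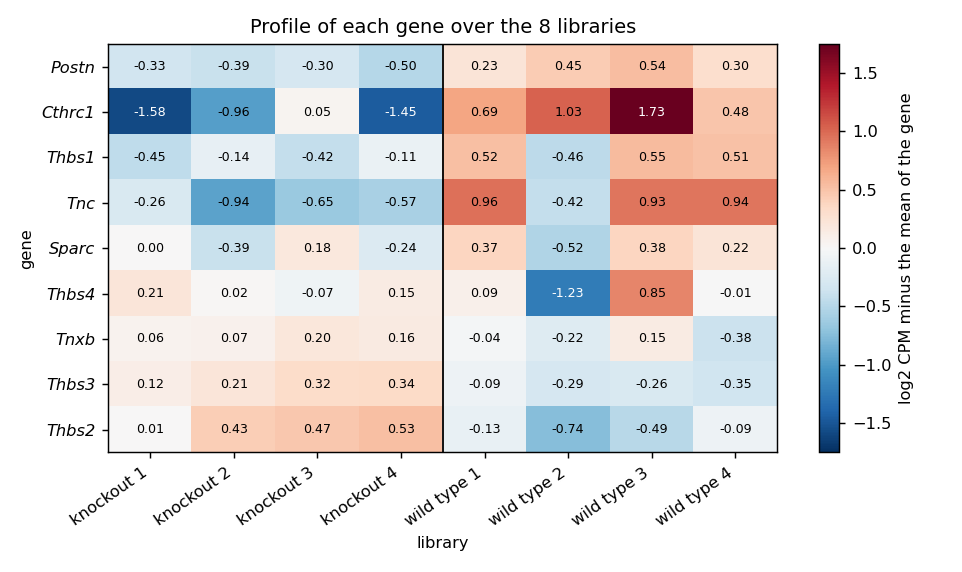
Log2 CPM of each member minus its mean over the 8 libraries, with knockout libraries left of the line and wild-type libraries right of it. Thbs2 reaches 0.53 in knockout library 4 and -0.74 in wild-type library 2, and the wild-type library 2 column is below 0 for Thbs1, Tnc, Sparc and Thbs4 but above 0 for Postn and Cthrc1.

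The genes around the members, in 6 lists, mostly did not pass the test. Of 99 listed genes 97 were tested, and 1 rose and 3 fell in knockout skin by edgeR's adjusted p, against 0.712% higher and 0.702% lower among all tested genes. At an unadjusted p under 0.05, 13 (13.4%) were higher and 11 (11.3%) lower, against 8.64% and 10.9% of all tested genes. The median log2 fold change over the lists was 0.01, against -0.02 over all tested genes. DESeq2 called 7 higher and 8 lower, where it called 3.16% and 3.13% of all genes, and limma voom called 10 higher and 12 lower, where it called 6.15% and 7.13%.

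Among 17 tested other matricellular genes, 1 rose and 1 fell, against 0.712% higher and 0.702% lower among all tested genes. Their median log2 fold change was -0.03. Spock1, a proteoglycan related to Sparc, rose: it had 2.63, 2.89, 3.21 and 3.63 CPM in knockout libraries 1 to 4, against 0.896, 1.5, 1.05 and 1.15 CPM in wild-type libraries 1 to 4, a log2 fold change of 1.43 ± 0.21 (edgeR adjusted p = 0.0154). Ccn4, a Wnt-induced CCN protein, fell, with 6.21, 5.03, 8.91 and 6.85 CPM in knockout libraries 1 to 4, against 16.9, 10.6, 13.7 and 14.2 CPM in wild-type libraries 1 to 4 (log2 fold change -1.04 ± 0.19, edgeR adjusted p = 0.0345). Both pairs of groups were separate. Ccn3 (-0.80 ± 0.20) and Ccn2, a TGF-beta and YAP target (0.71 ± 0.21), did not pass, with edgeR adjusted p = 0.0761 and 0.111.

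No gene passed among 18 tested receptors of the members, 24 matrix partners or 14 Wnt planar polarity genes, whose median log2 fold changes were 0.07, 0.07 and -0.03. At an unadjusted p under 0.05, where all tested genes gave the 8.64% higher and 10.9% lower above, the receptors had 3 higher and 1 lower, the matrix partners 3 and 3, and the Wnt planar polarity genes 0 and 2. DESeq2 called 3, 1 and 2 genes in these lists, in either direction, where it called 6.29% of all genes. In the same lists limma voom called 5, 4 and 3, where it called 13.3% of all genes. Those with the smallest p were the syndecan Sdc1 (-0.34 ± 0.08, edgeR adjusted p = 0.0712) and Itgb3 (0.57 ± 0.15, 0.0935), the fibril-associated collagen gene Col12a1 (0.91 ± 0.25, 0.101) and Eln, which encodes elastin (-1.12 ± 0.33, 0.127). The planar polarity genes with the smallest p were Vangl2 (-0.36 ± 0.08, edgeR adjusted p = 0.0578) and Fzd6 (-0.38 ± 0.10, 0.0825). Eln had 127, 130, 188 and 145 CPM in knockout libraries 1 to 4, against 427, 124, 396 and 333 CPM in wild-type libraries 1 to 4. As for Tnc and Thbs1, only wild-type library 2 lay within or below the knockout range.

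Among 17 tested genes of the TGF-beta axis, 1 fell and 0 rose, against 0.702% lower and 0.712% higher among all tested genes. Their median log2 fold change was 0.01. Tgfb2, a TGF-beta ligand, had 33, 37.1, 46.3 and 40 CPM in knockout libraries 1 to 4, against 53.7, 64.3, 71.9 and 58.5 CPM in wild-type libraries 1 to 4. These did not overlap, and the log2 fold change was -0.67 ± 0.12 (edgeR adjusted p = 0.0342). Ltbp2, of the latent TGF-beta binding protein family (-0.68 ± 0.16), and the receptor gene Tgfbr2 (0.55 ± 0.13) did not pass, with edgeR adjusted p = 0.0639 and 0.0679.

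Periostin is induced in several cell types by the type 2 cytokines IL-4 and IL-13, and 7 of the 8 listed genes of that pathway were tested. Of these, 1 fell and 0 rose, against 0.702% lower and 0.712% higher among all tested genes. Their median log2 fold change was 0.00, with 4 genes above 0 and 3 below. Tslp, the keratinocyte cytokine that starts type 2 responses, had 5.18, 3.85, 3.87 and 3.25 CPM in knockout libraries 1 to 4, against 6.53, 10.7, 12.8 and 6.45 CPM in wild-type libraries 1 to 4 (log2 fold change -1.16 ± 0.25, edgeR adjusted p = 0.0496). Il4ra (0.68 ± 0.30) and Il13ra2 (-0.38 ± 0.20) did not pass, with edgeR adjusted p = 0.26 and 0.339. Nor did Il4 (-0.18 ± 0.18, edgeR adjusted p = 0.614), whose genotypes overlapped. Il13 itself was below the filter, with 6, 3, 3 and 4 reads in knockout libraries 1 to 4, against 14, 11, 12 and 10 in wild-type libraries 1 to 4.

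These 4 list calls were lost in some fits with 1 library fewer, and the calls over all genes, 270 with every library, were 11 without knockout library 2 and 15 without knockout library 4. The call of Spock1 was lost without knockout library 2 or 4 (log2 fold change 1.46 and 1.34, edgeR adjusted p = 0.0641 and 0.0683). That of Tgfb2 was lost without knockout library 1, 2 or 4 or wild-type library 4, at log2 fold changes from -0.69 to -0.59, and that of Ccn4 without any of these or wild-type library 1, at -1.04 to -0.92. Tslp passed without wild-type library 3 (edgeR adjusted p = 0.0392) and not when any other library was left out, where its log2 fold change ran from -1.32 to -1.07. With the adipocyte markers as a covariate, no gene of all those tested passed the threshold. The log2 fold changes were then 1.73 for Spock1, -0.68 for Tgfb2, -0.95 for Ccn4 and -1.52 for Tslp, with edgeR adjusted p-values of 0.116, 0.22, 0.269 and 0.157.

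**Figure D5:**
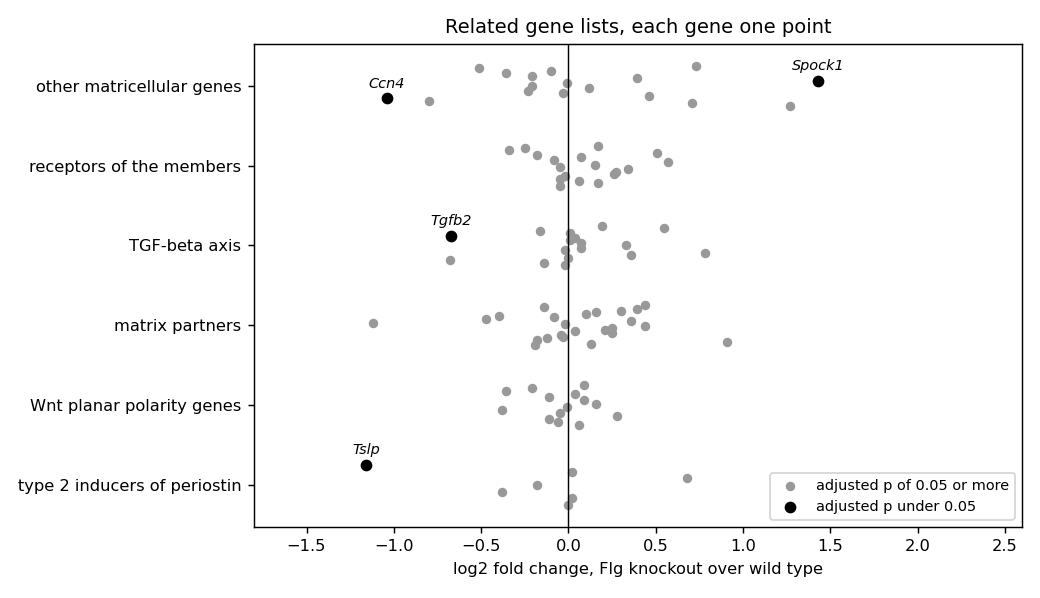
Log2 fold change (Flg knockout over wild type) of each of the 97 tested genes in the 6 lists, 1 point per gene, with black points for an edgeR adjusted p under 0.05. Spock1 is the black point right of 0, Ccn4, Tgfb2 and Tslp are those left of it, and the other points of each list lie on both sides of 0.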

How the data were processed

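RNA of whole back skin was measured in 8 libraries, 4 per genotype. The authors deposited whole-number read counts per gene, made with GSNAP and featureCounts 1.6.2 on mm10, per the submitters' processing notes. The design text names a SMART protocol and the sample labels a strand-specific kit (Ultra II Directional). The strand setting and the treatment of multiply aligned reads were not given in the sources used here. Spike-in sequences (92, with at most 1 read in any library) were left out, and symbols came from GENCODE M21 (49412 of 49671 genes).

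From these counts edgeR 4.0.16 (R 4.3.3) fitted genotype over 8 libraries with filterByExpr, TMM scaling, the robust quasi-likelihood test and Benjamini-Hochberg adjustment over 19099 genes, called at an adjusted p under 0.05. SEs were derived from the F statistic, and the steps were tested on simulated data. Likeness took named genes averaging at least 1 in log2 CPM (prior count 2). RefSeq held promoter windows for 7 of the 9 members.

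Alternatives were RLE size factors, DESeq2 1.42.0, limma 3.58.1 voom, no count filter, each library left out, adipocyte or anagen hair markers as a covariate, and a prior count of 0.5. Leaving out wild-type libraries 1 and 4 together was chosen after seeing the data. Named genes are the members, Flg, called list genes (up to 4 a list) and the 2 uncalled of smallest p, the nearest genes by profile, marker genes, and overlapping genes. The genes nearest to Tnc and Sparc are not reported here. Efna1, Il4 and Il13 were added after their values were seen. The members and lists were chosen with earlier results of these data known. Of 178 list entries 1 matched no gene name.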

Additional observations from a re-analysis of the deposited data

Results flagged for a closer look

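Among 78 groups of 4 libraries examined, 5 had a library whose gap to its nearest neighbour, as a share of the group's whole range, exceeded the critical value of Dixon's test. Chance alone gives this in about 5% of groups. Thbs1 in wild-type library 2 (102 CPM) and Tnc in the same library (19.9 CPM) stood below the other wild-type libraries, and so did Col12a1 (55.5 CPM), the fibril-associated collagen gene. Ltbp2 in knockout library 2 (33.2 CPM) stood below the other knockout libraries. The summed basal keratinocyte markers of wild-type library 3 (5191 CPM) stood above those of the other wild-type libraries.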

How the results depend on the processing

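Members past the threshold numbered 3 in the reported fit, with 1.41% of all genes. They numbered 0 with the adipocyte covariate (0%), 5 with the anagen covariate (2.47%), 5 with DESeq2 (6.29%) and 7 with limma voom (13.3%). With 1 library left out they numbered 0 to 4 (0.0566% to 6.82%). The share of all genes was 1.38% without the count filter and 1.93% without wild-type libraries 1 and 4. The counts that follow stand against these shares, which cover both directions. List genes called higher numbered 1 in the reported fit, 4 without the count filter, 0 with the adipocyte and 5 with the anagen covariate, 6 without wild-type libraries 1 and 4, 7 with DESeq2, 10 with limma voom and 0 to 3 with 1 library left out. List genes called lower numbered 3, then 0 with the adipocyte covariate, 8 with DESeq2, 12 with limma voom and 0 to 7 with 1 library left out. Genes beside Thbs3 called numbered 0, then 1 without the count filter, 1 with the anagen covariate, 1 with DESeq2, 2 with limma voom and 0 to 1 with 1 library left out. Flg had a log2 fold change of -1.31 with the adipocyte covariate (edgeR adjusted p = 0.0828). The cause of these shifts was not tested. Over all genes, 270 calls became 11 without knockout library 2, 15 without knockout library 4, 1325 without wild-type library 3 and 0 with the adipocyte covariate, where 2221 had an unadjusted p under 0.05. Of the members' log2 fold changes, 132 stayed within the spread of the libraries and 3 did not, all with the adipocyte covariate (Thbs1 -0.99, Thbs4 -0.87, Tnxb 0.02). Leaving out 1 library can hardly move a group mean beyond that spread, so this count is no measure of stability. Cthrc1, for example, went from -1.94 to -2.44 without knockout library 3 and still counted as within it. Calls of Tslp were also lost with RLE scaling (edgeR adjusted p = 0.0517). The nearest genes by profile were the same with a prior count of 0.5. Cthrc1, with as few as 40 reads in a library, was the member most limited by depth. No paired analysis was possible because the replicate numbers follow the order of the samples and pair nothing.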
